A study of Homo sapiens with 11 samples.

Results

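Expression of 8 genes of the epithelial-mesenchymal transition (EMT) was examined: the transcription factors SNAI1, SNAI2, ZEB1, ZEB2, TWIST1, TWIST2 and TCF4, and VIM, which encodes the intermediate filament protein vimentin. They were found by matching Ensembl identifiers, without their version, to these symbols, and all 8 were among the 37247 genes listed. Expression was measured by RNA sequencing in 6 libraries labelled MDA-MB-231, a human cell line from a breast cancer that lacks estrogen and progesterone receptors. In 3 libraries the labels give a control knockdown (Control-KD, genotype WT), and in 3 a knockdown of H2AS40 (H2AS40-KD, S40-type H2A). H2AS40 refers to forms of the core histone H2A that have serine, rather than another residue, at position 40. All cells were grown in DMEM with serum, and the agent used for the knockdown and its duration are not given in the labels. Values were in TPM, a unit in which transcript abundance is corrected for gene length and scaled to a common library total, so the depth behind each value is unknown. Whether replicates came from separate cultures is not in the labels, so the p-values may reflect technical spread alone.

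EMT is the process by which epithelial cells lose their junctions and polarity and gain a motile, mesenchymal form. SNAI1 and SNAI2 are zinc finger repressors, and ZEB1 and ZEB2 are zinc finger and homeodomain repressors; both families bind the DNA word CAGGTG (read as CACCTG on the other strand) in the promoters of epithelial genes such as CDH1, which encodes E-cadherin. TWIST1 and TWIST2 are basic helix-loop-helix factors that bind DNA together with E proteins, of which TCF4 is one, and the ID proteins hold E proteins away from DNA. Vimentin replaces or joins keratins in the cytoskeleton of cells that have passed through EMT, and its level is widely used as a mesenchymal marker.

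Promoter sequences show where this word lies in genes of the pathway. Windows from 250 bases before to 50 bases after an annotated start were taken from RefSeq (GRCh38.p14), and a gene can have several starts. CAGGTG and CACCTG were searched, and since each is the reverse complement of the other, this covers both strands. One or the other was present in 20.6% of all 35116 windows of that length, and in at least 1 window of 24.1% of all 27305 genes with a window. Of the 24 epithelial genes listed as repressed in EMT, 15 had a window and 11 of these 15 (73.3%) held the word. Among mesenchymal genes it was in 3 of 11 with a window (27.3%). Among the 5 EMT genes with a window it was found in ZEB1 (2 of 7 windows) and not in the windows of ZEB2, VIM, TWIST2 or TCF4; the windows of SNAI1, SNAI2 and TWIST1 were not used here. A match describes letters and does not show binding. The sequences below are the ZEB1 window with the most matches, the single VIM window, and the windows with the most matches among the epithelial genes, CLDN7 (claudin 7, a tight junction protein) and CRB3 (a polarity protein); capitals mark CAGGTG or CACCTG.
ZEB1 (chr10:31318966-31319265, plus strand): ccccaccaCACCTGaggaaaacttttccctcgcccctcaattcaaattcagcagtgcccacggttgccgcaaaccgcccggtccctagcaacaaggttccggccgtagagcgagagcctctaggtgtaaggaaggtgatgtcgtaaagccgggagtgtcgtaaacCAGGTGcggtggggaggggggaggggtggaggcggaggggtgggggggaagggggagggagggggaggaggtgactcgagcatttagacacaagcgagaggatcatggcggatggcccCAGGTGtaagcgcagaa
VIM (chr10:17227991-17228290, plus strand): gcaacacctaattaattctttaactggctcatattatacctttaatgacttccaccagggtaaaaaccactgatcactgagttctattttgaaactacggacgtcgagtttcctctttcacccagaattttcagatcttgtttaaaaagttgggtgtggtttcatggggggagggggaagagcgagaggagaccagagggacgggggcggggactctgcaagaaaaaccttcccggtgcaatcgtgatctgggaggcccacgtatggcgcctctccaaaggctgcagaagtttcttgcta
CLDN7 (chr17:7262429-7262728, minus strand): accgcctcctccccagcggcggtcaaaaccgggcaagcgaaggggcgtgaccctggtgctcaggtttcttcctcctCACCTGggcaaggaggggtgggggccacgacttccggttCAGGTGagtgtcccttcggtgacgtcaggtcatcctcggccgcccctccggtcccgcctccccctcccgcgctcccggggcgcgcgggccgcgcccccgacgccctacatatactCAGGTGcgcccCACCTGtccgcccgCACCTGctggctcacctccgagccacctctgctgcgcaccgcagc
CRB3 (chr19:6464021-6464320, plus strand): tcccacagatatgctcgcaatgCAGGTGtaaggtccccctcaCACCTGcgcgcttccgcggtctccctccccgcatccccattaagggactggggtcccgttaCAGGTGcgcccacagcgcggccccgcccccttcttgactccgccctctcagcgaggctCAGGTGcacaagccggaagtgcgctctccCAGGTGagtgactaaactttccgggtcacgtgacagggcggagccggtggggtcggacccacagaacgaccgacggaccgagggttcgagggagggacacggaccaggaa
In the ZEB1 window the 3 matches began at positions -242, -85 and 34 relative to that window's own start site. The whole window lies after 31318417, the first base of ZEB1 in the RefSeq coordinates. CLDN7 and CRB3 had 5 matches each, and in CRB3 all of them lay before that window's own start site. Both windows lie inside the RefSeq span of their gene, CLDN7 from 7259903 to 7263213 and CRB3 from 6463777 to 6467221. The other CLDN7 window, chr17:7263164-7263463, held no match. The VIM window held no match, nor any wider CANNTG word, which 68.7% of all windows held.

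The labelled cell line was checked against its markers before the groups were compared, and the levels of several genes went against the label in all 6 libraries. ESR1, the estrogen receptor, was between 12.3 and 21.2 TPM, and GATA3, a luminal transcription factor, between 436 and 471 TPM. CDH1, which MDA-MB-231 cells are known to lack, was between 56.8 and 64.8 TPM, EPCAM between 163 and 174 TPM, and ESRP1, an epithelial splicing factor, between 43.9 and 49.8 TPM. FOXA1 (75.2 to 94.0 TPM) and ERBB2 (27.7 to 31.9 TPM) were also present, whereas PGR was between 1.20 and 2.18 TPM. The mesenchymal-like markers of the line were abundant as well, with CD44 between 296 and 365 TPM, CAV1 (caveolin 1) between 108 and 156 TPM, and the receptor tyrosine kinase AXL between 190 and 205 TPM. Bulk libraries do not show whether the epithelial and mesenchymal messages came from the same cells, and in the comparisons below fewer cells of a type and less RNA per cell cannot be told apart. Markers of other tissues were low: over all 6 libraries the summed TPM of 7 blood cell markers was between 6.83 and 11.3, of 5 endothelial markers between 2.47 and 3.54, of 5 fibroblast markers between 0.949 and 2.23, and of 3 adipocyte markers between 0.131 and 0.571. Of the blood cell sum, HBA1 made up 5.36 to 8.91 TPM, while CD3E was at most 0.0555 TPM. Of the fibroblast markers, DCN was at most 0.471 TPM, and LUM, the highest of the list, at most 1.08 TPM.

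No fall was seen in the summed level of the genes taken as the target. H2AC25 and H2AC7, taken as the S40-type genes from recollection of their protein sequences and not checked here, summed to 32.4, 33.5 and 34.3 TPM in Control-KD against 34.3, 34.8 and 32.8 TPM in H2AS40-KD (two-sided exact permutation p = 0.50). The second group is therefore called the knockdown-labelled libraries (H2AS40-KD in the plots). Control-KD replicate 3 stood apart from the other 5 libraries, at -31.2 on a first principal component where the others lay between -0.784 and 12, and counts of the main gene groups are given without it as well, a choice made after seeing the data. Over the 14160 genes that reached 1 TPM in 3 or more libraries, limma, a linear model with a spread shared across genes, on log2(TPM + 1) called 178 at a Benjamini-Hochberg adjusted p under 0.05, which is 1.26% of those tested (0.516% higher and 0.742% lower in the knockdown-labelled libraries).

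The levels of the 8 genes spanned from 2281 TPM to a listed 0. VIM was far above the rest, followed by ZEB1 and SNAI2, then SNAI1, then ZEB2. In Control-KD each neighbouring pair of these 5 was separated in every library. In the knockdown-labelled libraries, SNAI2 (28.9 to 31.9 TPM) and ZEB1 (29.8 to 31.9 TPM) overlapped, and their order could not be told beyond the spread. TCF4, TWIST1 and TWIST2 were the low members. TCF4 was below 1 TPM in 5 of 6 libraries, and TWIST1 and TWIST2 in all 6, so these 3 were not tested. The other 5 were above 1 TPM in all 6 libraries and were tested.

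**Figure D1:**
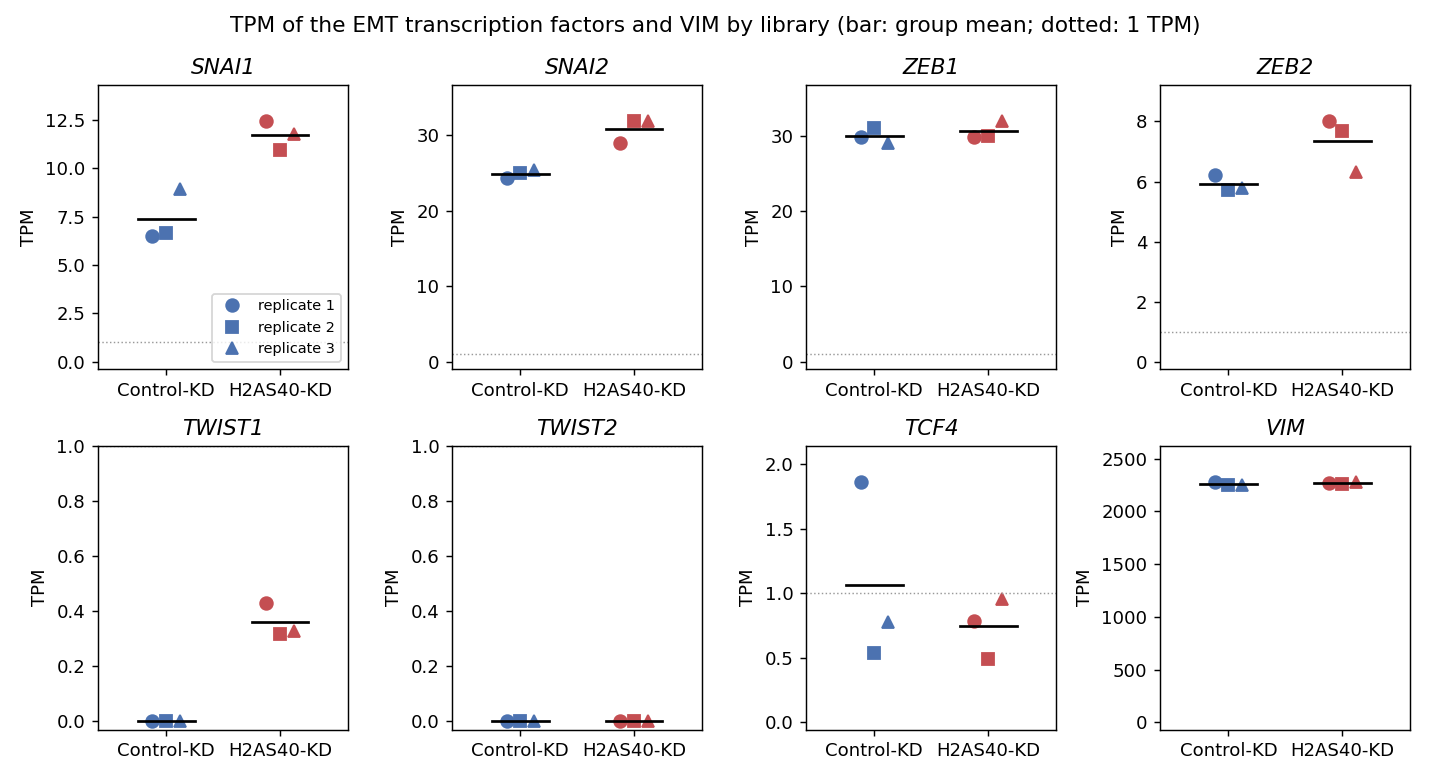
TPM of each of the 8 genes (vertical axes, a separate linear scale per gene) in the 3 Control-KD libraries (blue) and the 3 knockdown-labelled libraries (red), with symbols for replicates, bars for group means and a dotted line at 1 TPM. SNAI1, SNAI2 and ZEB2 do not overlap between groups, VIM and ZEB1 do, and TWIST2 is at a listed 0 throughout.

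No member passed the test over all genes. Of the 5 tested, 0 were called by limma, beside 1.26% of all tested genes. At an unadjusted p under 0.05 there were 3, SNAI1, SNAI2 and ZEB2, all higher in the knockdown-labelled libraries, where 8.76% of all tested genes were higher at that p and 7.75% lower. The same 3 did not overlap between groups, beside 12.9% of all tested genes that did not overlap and were higher. The median log2 change of the 5 was 0.27, and that of all tested genes was 0.01. Without Control-KD replicate 3, SNAI1 was called, where 0.53% of all tested genes were called higher. In that fit 2 of the 5 were higher at an unadjusted p below 0.05, beside 8.46% of all tested genes. There 3 of the 5 did not overlap and were higher, beside 18.3% of all tested genes. The median of the 5 was 0.26, and that of all tested genes was 0.0034. All members were measured in the same 6 libraries and are not replicates of one another.

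SNAI1 (ENSG00000124216.3) is encoded on chromosome 20 from 49982980 to 49988886 (GRCh38.p14, RefSeq) and is the Snail family repressor of CDH1. Its values were 6.50, 6.63 and 8.94 TPM in Control-KD replicates 1, 2 and 3, and 12.4, 10.9 and 11.8 TPM in the knockdown-labelled libraries. Every library of the second group was above every one of the first, and Control-KD replicate 3 was the highest of its group. The means were 7.36 ± 1.37 and 11.7 ± 0.754 TPM (SD, n = 3 each), a difference of 59.2% in mean TPM. On the log2(TPM + 1) scale the change was 0.62 (SE 0.13, 95% interval 0.31 to 0.92), and the limma adjusted p was 0.0847. When Control-KD replicate 3 was left out the change was 0.75 and passed the threshold (limma adjusted p = 0.0340). Without each of the other libraries in turn it was between 0.54 and 0.66 and did not pass, with limma adjusted p from 0.193 to 0.254.

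SNAI2 (ENSG00000019549.10), also called Slug, is the other Snail repressor present above 1 TPM and is encoded on chromosome 8 from 48917598 to 48921429. It had 24.3, 24.9 and 25.4 TPM in Control-KD against 28.9, 31.8 and 31.9 TPM in the knockdown-labelled libraries, again with no overlap. The 3 Control-KD libraries lay close together (24.9 ± 0.544 TPM, SD, n = 3), and the spread in the second group was wider (30.9 ± 1.70 TPM, SD, n = 3). The mean was 24.1% higher, a log2 change of 0.30 (SE 0.06, 95% interval 0.15 to 0.44, limma adjusted p = 0.0804). With any 1 library left out the change was between 0.28 and 0.34 and limma adjusted p between 0.108 and 0.239.

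The 2 Snail genes were also compared with each other within each library. The ratio of SNAI1 to SNAI2 TPM was 0.268, 0.266 and 0.352 in Control-KD and 0.430, 0.343 and 0.369 in the knockdown-labelled libraries. Replicate 2 of the second group was below Control-KD replicate 3, so the groups overlapped; all 3 knockdown-labelled ratios were above those of Control-KD replicates 1 and 2. The mean log2 ratio was higher by 0.37 in the knockdown-labelled libraries (two-sided exact permutation p = 0.20, where 3 against 3 cannot give less than 0.10), and by 0.51 without Control-KD replicate 3. SNAI3, the remaining Snail gene, was between 0.162 and 0.601 TPM and was not tested.

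ZEB1 (ENSG00000148516.21), on chromosome 10 from 31318417 to 31529804, was the most abundant of the transcription factors in Control-KD. It had 29.8, 31.0 and 29.0 TPM there and 29.8, 30.0 and 31.9 TPM in the knockdown-labelled libraries, and the groups overlapped. The log2 change was 0.03 (SE 0.06) with a 95% interval from -0.10 to 0.17, a fold between 0.932 and 1.12 (limma adjusted p = 0.826). ZEB2 (ENSG00000169554.19), on chromosome 2 from 144384081 to 144520119, was less abundant than ZEB1, at 6.21, 5.73 and 5.79 TPM in Control-KD against 8.01, 7.70 and 6.33 TPM in the knockdown-labelled libraries. The groups did not overlap, but replicate 3 of the second group lay only slightly above Control-KD replicate 1. The log2 change was 0.27 (SE 0.11, 95% interval 0.0016 to 0.53, limma adjusted p = 0.302), and with any 1 library left out limma adjusted p was between 0.278 and 0.543. The ratio of ZEB1 to ZEB2, with 1 added to each TPM, was 4.27, 4.75 and 4.42 in Control-KD and 3.42, 3.56 and 4.49 in the knockdown-labelled libraries, with overlap (two-sided exact permutation p = 0.30).

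TWIST1 (ENSG00000122691.12, chromosome 7, 19113047 to 19117636) was listed at 0 in all 3 Control-KD libraries and at 0.430, 0.317 and 0.329 TPM in the knockdown-labelled ones. All 6 values were below 1 TPM, and a listed 0 in a table without counts may be a failed estimate, so no fold is given. The difference of the mean log2(TPM + 1) was 0.44. When the filter on low values was dropped, TWIST1 was 1 of 98 genes called (limma adjusted p = 0.0414). That call rests on the listed 0 values of Control-KD, which have no spread, so no conclusion is drawn from it. TWIST2 (ENSG00000233608.3, chromosome 2, 238848085 to 238910534) was listed at 0 in every library. TCF4 (ENSG00000196628.16, chromosome 18, 55222185 to 55635957) had 1.86, 0.540 and 0.777 TPM in Control-KD against 0.782, 0.494 and 0.956 TPM in the knockdown-labelled libraries. Control-KD replicate 1 was the single library above 1 TPM, the other 5 were intermixed, and the difference of mean log2(TPM + 1) was -0.20 (limma adjusted p = 0.790 without the filter). The other E proteins were far more abundant than TCF4: TCF3 was between 80.1 and 120 TPM, with Control-KD replicate 3 the lowest, and TCF12 between 28.3 and 37.2 TPM.

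VIM (ENSG00000026025.15), on chromosome 10 from 17228241 to 17237593, was among the most abundant messages, ranking between 56 and 59 of all listed genes in each library. It had 2277, 2250 and 2247 TPM in Control-KD against 2265, 2263 and 2281 TPM in the knockdown-labelled libraries, with overlap. The means were 2258 ± 16.8 and 2270 ± 10.1 TPM (SD, n = 3 each), and the log2 change was 0.01 (SE 0.02) with a 95% interval from -0.04 to 0.05. This interval covers a fold between 0.975 and 1.04 (limma adjusted p = 0.879), the narrowest among the tested members. The sign turned, to -0.02, when a trend of the change on genomic gene length was removed (limma adjusted p = 0.677).

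**Figure D2:**
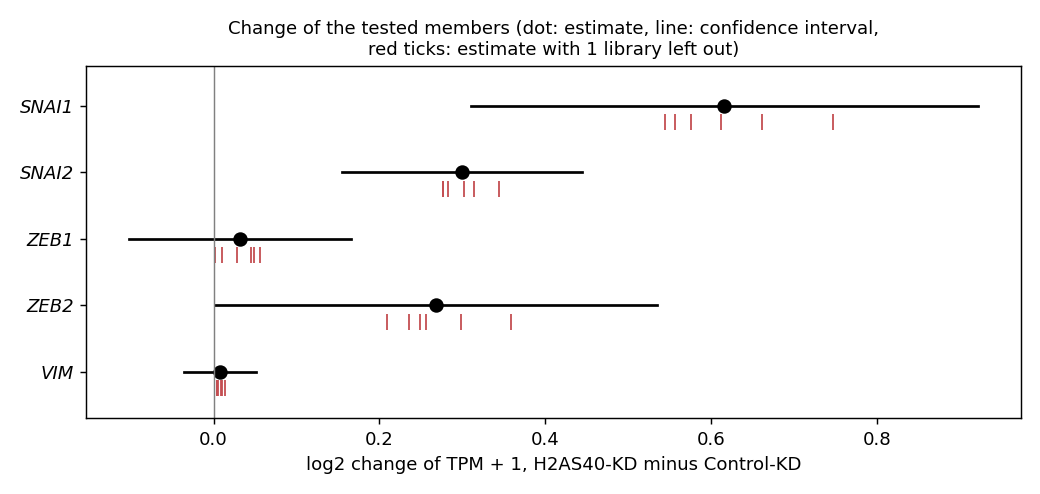
Log2 change of TPM + 1, knockdown-labelled libraries minus Control-KD, for the 5 tested members; dots are limma estimates, lines 95% intervals, and red ticks the estimates with 1 library left out. SNAI1 has the widest interval (0.31 to 0.92) and VIM the narrowest (-0.04 to 0.05), and all estimates with a library left out are above 0.

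Genes whose values followed those of a member across the 6 libraries were listed as a description: there were 10620 candidates with a mean of at least 5 TPM, there are only 6 points, and no test is given. For SNAI1 they were MCF2L (r = 0.993), URGCP (r = 0.991) and TNFAIP3, an inhibitor of NF-kappaB (r = 0.989). For SNAI2 they were PRPF19, a splicing factor (r = 0.996), MSL3P1, a pseudogene (r = 0.995), and RARA, the retinoic acid receptor alpha (r = 0.988). For ZEB1 they were VPS51 (r = 0.992), SUPT3H (r = 0.990) and NAGPA (r = 0.986), and for VIM they were SRSF4 (r = 0.993), ZNF626 (r = 0.985) and MEA1 (r = 0.984).

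Among 15 other transcription factors that can drive EMT, 11 were tested and 1 rose, beside 0.516% of all tested genes that were called higher. ETS1 had 117, 116 and 111 TPM in Control-KD against 138, 133 and 137 TPM in the knockdown-labelled libraries, without overlap. The log2 change was 0.25 (SE 0.04, limma adjusted p = 0.0338). The call held without Control-KD replicate 3 (limma adjusted p = 0.0488) and ended without any of the other 5, at limma adjusted p from 0.106 to 0.156, and it also ended in a fit without an intensity trend (limma adjusted p = 0.123). The list median was 0.06, with 7 of 11 positive, beside 0.01 and 53.1% positive over all tested genes. Without Control-KD replicate 3 the median was -0.08, with 5 of 11 positive. HMGA2 (48.2 to 60.7 TPM), SOX9 (34.5 to 38.0 TPM) and FOXC1 (14.2 to 23.0 TPM) were well expressed and not called. FOXC2 was at most 0.130 TPM.

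The ID proteins, inhibitors of the E protein partners of TWIST, were all present, and limma called 0 of 4, while 3 had an unadjusted p below 0.05 and the higher mean in the knockdown-labelled libraries, beside 8.76% of all tested genes. ID3 had the smallest p, with 95.0, 103 and 99.9 TPM in Control-KD against 111, 111 and 113 TPM in the knockdown-labelled libraries (limma adjusted p = 0.114). ID2 had 30.7, 41.3 and 34.3 TPM in Control-KD against 49.2, 45.3 and 49.6 TPM in the others (limma adjusted p = 0.117). In ID1, ID2 and ID3 the groups did not overlap, beside 12.9% of all tested genes that did not overlap and were higher. The median log2 change of the 4 was 0.17, and 0.14 without Control-KD replicate 3.

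Cofactors and turnover factors of the Snail and ZEB proteins were expressed in both groups. Of 15 corepressor and chromatin genes tested, limma called 0, while 2 had an unadjusted p below 0.05, a share below the 16.5% of all tested genes; the median log2 change was 0.01. LOXL2, a lysyl oxidase that binds SNAI1, had the smallest p, with 36.6, 43.8 and 35.9 TPM in Control-KD against 30.2, 29.2 and 30.0 TPM in the knockdown-labelled libraries (limma adjusted p = 0.102). Of 16 genes for kinases, ubiquitin ligases and deubiquitinases that set the stability of these proteins, limma called 0, while 1 had an unadjusted p below 0.05, again a smaller share than among all genes; the median was 0.05, and 0.02 without Control-KD replicate 3. That gene was SIAH1, a ubiquitin ligase, with means of 15.4 and 17.5 TPM (limma adjusted p = 0.287). GSK3B, the kinase that marks SNAI1 for destruction, was between 22.5 and 25.9 TPM.

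The epithelial genes that Snail and ZEB factors repress were expressed in every library. All 24 were above 1 TPM throughout and were tested, and limma called 0, while 6 had an unadjusted p below 0.05, beside 16.5% of all tested genes. Of these 6, LLGL2, ST14, RAB25, PRSS8 and SPINT1 had the higher mean in the knockdown-labelled libraries and DSP, desmoplakin, the lower. LLGL2, a polarity protein and known SNAI1 target, had the smallest p, with 125, 128 and 112 TPM in Control-KD against 153, 142 and 142 TPM in the knockdown-labelled libraries (limma adjusted p = 0.112). The median log2 change of the 24 was 0.11, with 18 positive and 9 that did not overlap and were higher, beside 53.1% positive and 12.9% not overlapping and higher among all tested genes. Without Control-KD replicate 3, the lowest control for LLGL2, the median was 0.06 and 4 had an unadjusted p below 0.05. These were 2 in each direction (8.33%), near the 8.46% higher and 7.65% lower among all tested genes. In that fit 16 of 24 were positive, beside 51.0% of all tested genes, and 9 did not overlap and were higher, beside 18.3%. Summed over the list, the TPM was between 1208 and 1305 in Control-KD and between 1325 and 1368 in the others. CDH1 itself had 64.8, 56.8 and 59.0 TPM in Control-KD against 57.0, 60.0 and 58.9 TPM in the knockdown-labelled libraries, with overlap. The epithelial regulators that oppose ZEB1, 12 of 13 tested, had a median of 0.03. By limma 0 of them were called, and OVOL1 and KLF4 had an unadjusted p below 0.05, beside 16.5% of all tested genes; without Control-KD replicate 3 the median was -0.0024. OVOL1, a repressor of ZEB1, had means of 12.4 and 15.3 TPM (limma adjusted p = 0.153), and KLF4 66.1 and 76.1 TPM (limma adjusted p = 0.152).

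**Figure D3:**
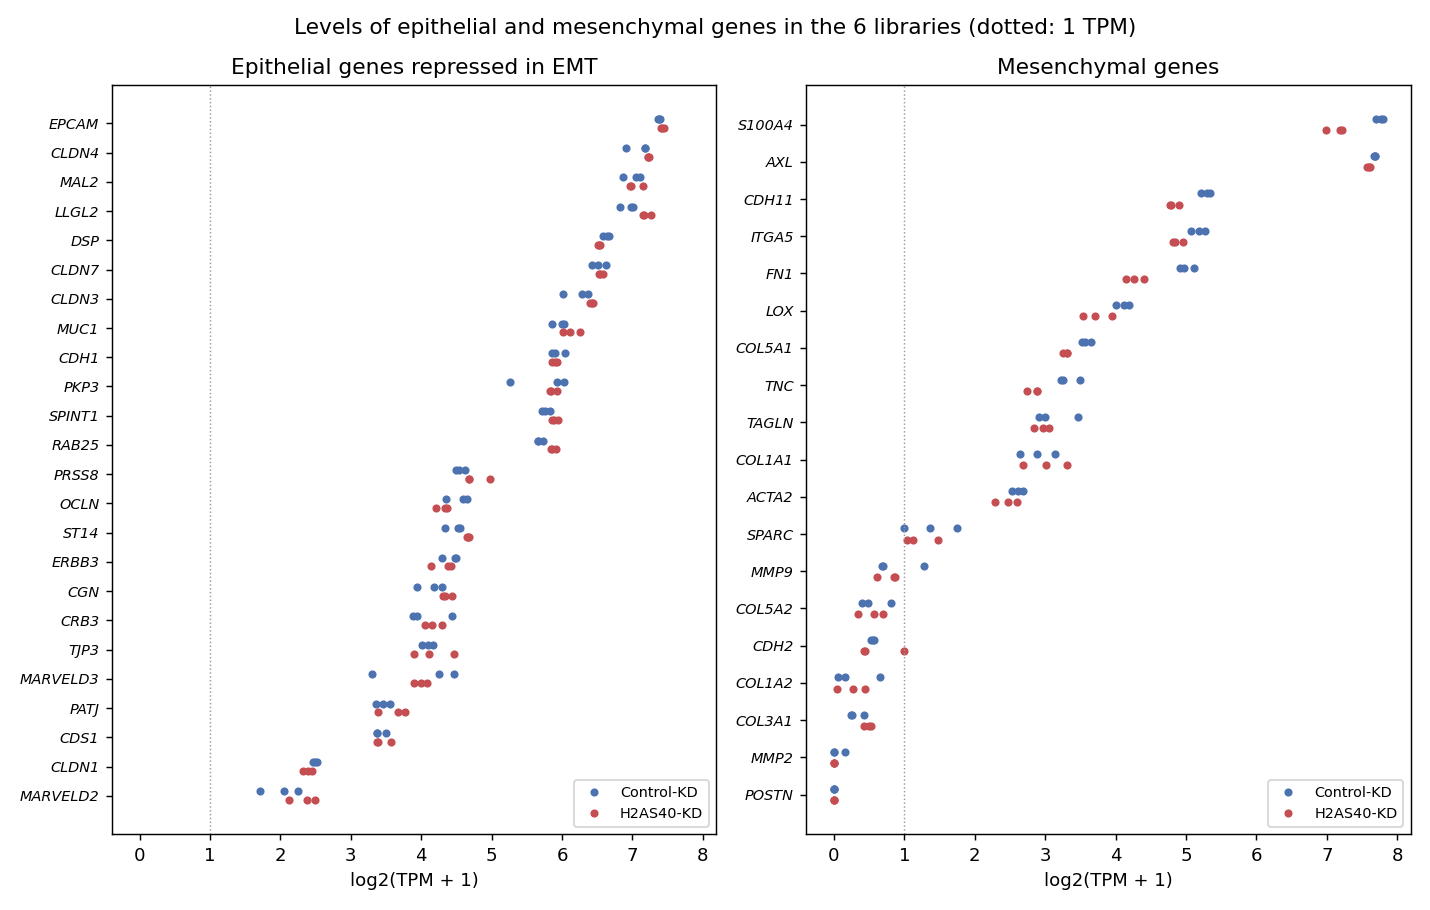
Log2(TPM + 1) of 24 epithelial genes repressed in EMT (left) and 19 of the 20 mesenchymal genes (right), 1 point per library, blue for Control-KD and red for the knockdown-labelled libraries, with a dotted line at 1 TPM. All 24 epithelial genes lie above the line in every library, while 6 of the mesenchymal genes lie below it in every library, among them MMP2 and POSTN.

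Of the mesenchymal genes that accompany EMT, S100A4, FN1 and CDH11 fell and none rose past the threshold. Of 20 genes, 13 were tested and 7, including COL1A2, COL3A1 and POSTN, were too low; CDH2, which encodes N-cadherin, was at most 0.991 TPM. S100A4, a calcium-binding protein of motile cells, had 218, 206 and 222 TPM in Control-KD against 147, 145 and 126 TPM in the knockdown-labelled libraries. FN1, fibronectin, had 29.2, 33.7 and 30.4 TPM against 16.7, 18.1 and 20.1 TPM, and CDH11, a mesenchymal cadherin, had 39.6, 36.1 and 38.4 TPM against 26.4, 26.6 and 28.9 TPM. In none of the 3 did the groups overlap, and the log2 changes were -0.63, -0.73 and -0.46 (limma adjusted p = 0.0129, 0.0182 and 0.0246). With 1 library left out, S100A4 and FN1 were still called without Control-KD replicate 3 or replicate 3 labelled H2AS40-KD, and CDH11 without Control-KD replicate 3; in the other fits the highest limma adjusted p was 0.0789, 0.0900 and 0.125 for the 3 genes. Without an intensity trend all 3 calls ended (limma adjusted p = 0.0602, 0.0602 and 0.0774). The list median was -0.29, with 2 of 13 positive. The share of all tested genes called lower was 0.742%, and 8 of the 13 did not overlap and were lower, beside 11.3% of all tested genes. Without Control-KD replicate 3 the median was -0.30 with 3 of 13 positive, and 3 were called lower, beside 0.609% of all tested genes. In that fit 8 were lower at an unadjusted p below 0.05, beside 7.65%, and 9 did not overlap and were lower, beside 16.8%.

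The markers that define mesenchymal-like lines were measured beside these genes. CAV1 fell, from 143, 149 and 156 TPM to 117, 108 and 109 TPM (log2 change -0.42, SE 0.05, limma adjusted p = 0.0173), and the call held without Control-KD replicate 3 (limma adjusted p = 0.0289) and ended without any of the other 5, at limma adjusted p from 0.0712 to 0.0817. The CAV1 call also ended without an intensity trend (limma adjusted p = 0.0881). The share of all tested genes called lower was 0.742%. CD44 had means of 359 and 310 TPM (limma adjusted p = 0.0543). In all 5 of CD44, CAV1, CAV2, MSN and EGFR the groups did not overlap and the knockdown-labelled libraries were lower, beside 11.3% of all tested genes; their summed TPM was between 848 and 867 in Control-KD and between 726 and 745 in the others. The 5 luminal markers ESR1, PGR, ERBB2, GATA3 and FOXA1 had 0 calls by limma and 0 at an unadjusted p under 0.05. Their sums were 579 to 618 TPM in Control-KD and 573 to 605 TPM in the others. Of the 5, GATA3 alone did not overlap between groups, and it was lower (means of 467 and 448 TPM). Without Control-KD replicate 3, 3 of the 5 did not overlap and were lower, beside 16.8% of all tested genes. ESR1 had the smallest p (means of 14.9 and 19.5 TPM, limma adjusted p = 0.360). The blood cell markers summed to between 7.78 and 11.3 TPM in Control-KD and between 6.83 and 10.2 TPM in the others, and the mitochondrially encoded genes had a median log2 change of -0.05. Of the 7 blood cell markers only 2 were tested, and CD14 had the smaller p (means of 1.33 and 0.696 TPM, limma adjusted p = 0.264). CD14 reached 1 TPM in the 3 Control-KD libraries alone, so it passed the filter only through the group where it was higher. KDR was the 1 endothelial marker tested (1.47 and 1.40 TPM, limma adjusted p = 0.922). MT-ND3 had the smallest p of the 13 mitochondrially encoded genes (3357 and 3202 TPM, limma adjusted p = 0.262). The part of any of these in the results for S100A4, FN1, CDH11, SNAI1 and SNAI2 was not tested.

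**Figure D4:**
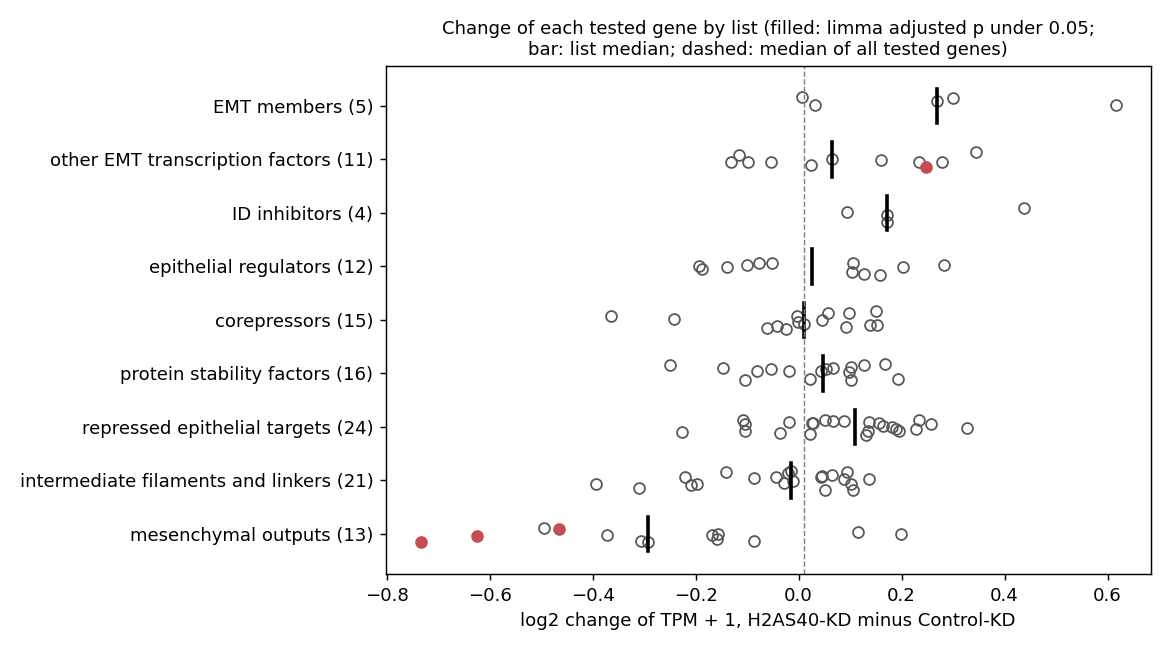
Log2 change of TPM + 1, knockdown-labelled libraries minus Control-KD, of each tested gene in 9 lists; filled points have a limma adjusted p under 0.05, bars are list medians and the dashed line is the median of all tested genes. The mesenchymal genes have a median of -0.29 and 3 filled points on the left, whereas the 5 tested members have a median of 0.27 and none filled.

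Vimentin was set beside the other intermediate filament genes. KRT8 and KRT18, the keratins of simple epithelia, were between 3503 and 3629 TPM and between 2236 and 2291 TPM, KRT19 between 756 and 866 TPM, and KRT7 between 235 and 280 TPM. The sum of these 4 keratins divided by VIM was 3.07 in each Control-KD library, and 3.07, 3.07 and 3.01 in the knockdown-labelled libraries. Of the basal keratins, KRT5 and KRT14 were at most 0.0836 and 0.703 TPM, whereas KRT17 was between 7.29 and 10.4 TPM and KRT15 at most 4.30 TPM and above 1 TPM in all 6 libraries. The muscle filament gene DES and the neuronal INA, NEFL, NEFM and NEFH were at most 0.0649 TPM, whereas PRPH, the neuronal filament peripherin, was between 0.848 and 3.51 TPM and NES, nestin, between 2.53 and 5.40 TPM. Of 21 filament and linker genes tested, limma called 0, while 2 had an unadjusted p below 0.05, a share below the 16.5% of all tested genes. The median log2 change was -0.02 with 9 positive, and without Control-KD replicate 3 it was -0.10 with 4 positive. In that fit 5 (23.8%) had an unadjusted p below 0.05, all lower, beside 7.65% of all tested genes that were lower. In the same fit 42.9% of the list did not overlap and were lower, beside 16.8% of all tested genes. The 2 in all 6 libraries were the nuclear lamina gene LMNB1, with 86.8, 89.1 and 93.0 TPM in Control-KD against 75.4, 77.1 and 77.7 TPM in the others (limma adjusted p = 0.0646), and SYNM, which encodes synemin, a partner of vimentin, with means of 9.68 and 8.24 TPM (limma adjusted p = 0.285).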

How the data were processed

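Gene-level TPM of 6 RNA-seq libraries were analysed as deposited by the authors, 1 column per library; each library sums to 1000000. The quantification software was not given in the sources used here; submitters' processing notes name the build hg38, Bowtie2 and MACS2, with no role. The 5 ChIP samples were not analysed here. Identifiers were matched to symbols for 29235 of 37247 genes; coordinates are from RefSeq, by symbol. The antisense RNAs of VIM, ZEB1, ZEB2 and TCF4 and the miR-200c and miR-205 host RNAs matched no row and were not analysed here. Whether strand was kept is not given.

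Values were tested as log2(TPM + 1), so changes of low genes are understated, with limma 3.58.1 in R 4.3.3 (intensity trend, two-sided, Benjamini-Hochberg over the 14160 genes that reached 1 TPM in 3 or more libraries, threshold 0.05), after the step was tested on simulated data. In that simulation 2.1% of genes changed by a log2 of 0.25 were recovered, 55.2% at 0.5 and 90.8% at 1. The changed genes were all well above the filter and no simulated library was made to stand apart. Recovery of genes near the filter, or with an outlying library, was not measured. A missing call at the smaller changes therefore does not show that a gene was unchanged. Ratios were tested by exact permutation. The members and lists were chosen with earlier results of these data known. Named were all members, up to 3 called genes of each list with the largest change or the gene with the smallest p, all line markers, and 3 genes most like each of 4 members; other genes were named after their values were seen. Alternatives covered pseudocount, filter, scaling, gene span, variance model, replicate number as a block, and leaving out each library. No pair of libraries was identical (at most 0.113% of tested genes had equal TPM). Some genes of the lists are counted but not reported here by name.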

Additional observations from a re-analysis of the deposited data

How the results depend on the processing

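None of the 5 tested members was called under any alternative listed in the methods except SNAI1 without Control-KD replicate 3, so leaving out 1 library gave 0 to 1 member calls. With no filter on low values the count was 1, TWIST1, a call that rests on listed 0 values in Control-KD. SNAI1, SNAI2, ZEB1 and ZEB2 kept a positive sign in every alternative. VIM reversed, to -0.023, with a gene-span trend removed. Over all genes the 178 calls became 98 with no filter and 10 without an intensity trend, which ended the calls of ETS1, S100A4, FN1, CDH11 and CAV1, and between 5 and 159 with 1 library left out. With the replicate number as a block 0 genes were called by limma, 0 members and none of those 5 genes among them; same-numbered libraries did not deviate together (correlations of -0.0101, -0.0642 and -0.0015 across genes), so the numbers were not taken as pairs. With the replicate block the mean log2 ratios, 0.37 for SNAI1 to SNAI2 and -0.24 for ZEB1 to ZEB2, are the same by construction. The two-sided sign-flip exact p was 0.25 and 0.50, where 3 pairs cannot give less than 0.25. Both ratios kept their direction under each alternative run; adding 1 before the ZEB ratio is its main setting. No sequencing depth can be had from TPM, so no counting error is given, and values under 1 TPM, those of TWIST1 and TCF4 among them, carry an unknown counting error.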
